A study of Homo sapiens with 22 samples.

Results

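The MYC and MAX network was followed through the deposited peak lists of THP-1, a human monocytic leukaemia line, with and without QKI5 knockdown. The network here is 9 genes: MYC, MYCN, MYCL, MAX, MXD1, MXI1, MNT, MLX and MGA. They are 9 of 20037 protein-coding genes in the RefSeq table used, and all 9 were found in it. For each gene, peaks of H3K4me3 and RNA polymerase II (Pol II) were taken within 1 kb of either end of the gene and inside it, and QKI5 contacts were taken by the gene symbol given beside them.

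The knockdown cells had been infected with a lentivirus carrying a short hairpin against QKI5, and the control cells with a lentivirus carrying a control hairpin. Both were THP-1 cultures, so by the labels every group carries a lentiviral hairpin, although in the submitters' design text the controls are called untreated. Chromatin immunoprecipitation (ChIP) maps DNA that carries a histone mark or a bound protein, and crosslinking immunoprecipitation (CLIP) maps RNA held by a protein. The 22 samples comprised, for knockdown and for control alike, 2 of H3K4me3, 2 of Pol II, 2 of QKI5 CLIP and 2 inputs to the CLIP. The rest were ChIP inputs, 4 from knockdown and 2 from control. Whether the replicates were separate cultures or infections is not given in the sources used here.

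MYC, MYCN and MYCL are transcription factors that pair with MAX and bind the E-box CACGTG to activate genes of growth and metabolism. MXD1, MXI1, MNT and MGA pair with MAX at the same sequence and repress, MXD1, MXI1 and MNT through SIN3 corepressors and MGA within a Polycomb-type complex. MLX is the partner of the MLXIP and MLXIPL proteins in glucose-responsive transcription and can also pair with MXD1 and MNT. In myeloid cells a fall of MYC and a rise of MXD1 accompany the end of proliferation and the start of differentiation. QKI5 is the nuclear form of QKI, which binds RNA and takes part in splicing, and H3K4me3 marks active promoters.

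The sequences before the annotated starts show how far the network genes carry the E-box that its own proteins bind. RefSeq promoter windows (GRCh38.p14, 250 bases before to 50 after a start) were matched by symbol for 8 of the 9 genes and gave 13 windows. MYC had no window, so its promoter was not searched for the E-box. The E-box CACGTG, which reads the same on both strands, was in 2 of these 13 windows, those of MNT and MLX. It was in 8.34% of the 22199 windows of protein-coding genes. All 13 member starts lay on H3K4me3 in both conditions, and of the 14214 windows with such a start 9.66% held the E-box. The first pair of sequences below holds the E-box in capitals, and the others are shown because the results turn on those genes. MNT was read from chr17:2401061-2401310 on the minus strand, and MLX from chr17:42566850-42567099 on the plus strand. MYCN, whose promoter carried the histone mark without a Pol II peak, was read from chr2:15940300-15940549 on the plus strand. MXD1, whose RNA carried QKI5 contacts just after the start, was read from chr2:69914859-69915108 on the plus strand. The second of 3 annotated MGA starts, which lies inside the gene, was read from chr15:41660155-41660404 on the plus strand.
MNT: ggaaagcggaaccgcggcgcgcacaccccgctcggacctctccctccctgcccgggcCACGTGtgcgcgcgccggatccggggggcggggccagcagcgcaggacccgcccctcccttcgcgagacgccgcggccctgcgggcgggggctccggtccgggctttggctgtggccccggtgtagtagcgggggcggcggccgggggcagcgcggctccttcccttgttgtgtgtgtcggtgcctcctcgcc
MLX: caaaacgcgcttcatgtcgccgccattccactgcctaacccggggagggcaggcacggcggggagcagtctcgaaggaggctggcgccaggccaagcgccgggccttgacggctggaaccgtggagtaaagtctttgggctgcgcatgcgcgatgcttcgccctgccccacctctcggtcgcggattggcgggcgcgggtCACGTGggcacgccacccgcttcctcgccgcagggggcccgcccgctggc
MYCN: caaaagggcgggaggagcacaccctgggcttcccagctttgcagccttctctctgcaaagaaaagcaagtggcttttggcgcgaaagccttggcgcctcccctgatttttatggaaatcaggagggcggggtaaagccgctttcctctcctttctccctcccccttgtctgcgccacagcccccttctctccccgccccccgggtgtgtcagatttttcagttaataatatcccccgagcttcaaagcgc
MXD1: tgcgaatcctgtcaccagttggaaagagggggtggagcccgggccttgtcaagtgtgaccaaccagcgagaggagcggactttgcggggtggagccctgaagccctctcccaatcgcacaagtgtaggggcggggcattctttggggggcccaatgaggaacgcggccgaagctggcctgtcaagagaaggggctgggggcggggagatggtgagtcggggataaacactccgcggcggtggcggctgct
MGA, inner start: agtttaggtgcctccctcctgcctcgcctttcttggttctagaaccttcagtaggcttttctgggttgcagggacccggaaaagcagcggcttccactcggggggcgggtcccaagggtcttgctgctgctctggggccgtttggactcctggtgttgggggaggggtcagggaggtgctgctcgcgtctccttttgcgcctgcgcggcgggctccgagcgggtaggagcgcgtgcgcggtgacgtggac
The E-box lay 193 bases before the MNT start and 50 bases before the MLX start, counted from its first base. The share of G and C over the 13 windows ran between 55.0%, at the first MXI1 start, and 76.0%, at MNT. The median was 62.3% over all windows of protein-coding genes and 66.3% over those with a start on H3K4me3 in both conditions. At MNT and MLX, which hold the E-box, the share was high, though not only there. The share of G and C was 71.0% at MLX, and higher than that at MYCL (74.7%) and the second MXI1 start (75.3%), which hold no E-box. A match is a description of letters and shows no binding.

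The labelled cell type was checked first. Of 10 monocytic and myeloid marker genes, 9 had an H3K4me3 peak and 8 a Pol II peak at a gene end in both conditions. None of 3 epithelial and 5 erythroid marker genes had H3K4me3 in either condition, and 1 of 4 T-cell and 2 of 5 B-cell markers had it in both, with 1 more B-cell marker in knockdown alone. Pol II was listed at no T-cell or epithelial marker, at 1 erythroid marker in both conditions and 1 in knockdown alone, and at 2 B-cell markers in knockdown alone and 2 in control alone. QKI itself had H3K4me3 peaks of 8109 bp in knockdown and 10245 bp in control, and Pol II peaks of 6954 bp in knockdown and 6642 bp in control. These DNA peaks are no measure of the knocked-down RNA or protein, which the lists do not hold. The lists held 21373 H3K4me3 peaks in knockdown and 21965 in control, 35103 Pol II peaks in knockdown and 33376 in control, and 669 CLIP peaks in knockdown and 7337 in control. Each list pools both replicates of its group, so no spread between replicates and no p-value can be given, and the depth of the libraries is unknown. In pooled lists of bulk cells, a peak in fewer cells and a weaker peak in every cell cannot be told apart.

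The first comparison asks whether the promoters of the network carried H3K4me3 and Pol II after knockdown. All 9 genes had an H3K4me3 gene-end peak in both conditions, as did 66.6% of all protein-coding genes. Pol II was listed in both conditions at 8 of the 9, and at 57.6% of all protein-coding genes. Both marks were thus in both conditions at 8 of 9 members and at 55.6% of all genes. Among genes with H3K4me3 in both conditions, 83.4% had Pol II in both. The exception was MYCN, which had no Pol II peak in either condition, at its ends or inside. Taking both ends of a gene together, no member had either mark in a single condition. Separate 3' end peaks in control alone are given below. No member lacked H3K4me3, as 32.0% of genes did in both conditions. Pol II was absent in both from 36.5% of genes. The shares over all genes were 0.779% for H3K4me3 in knockdown alone and 0.554% in control alone, and for Pol II 3.97% in knockdown alone and 1.91% in control alone. For genes that carry H3K4me3, the members' counts are therefore near the background.

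**Figure D1:**
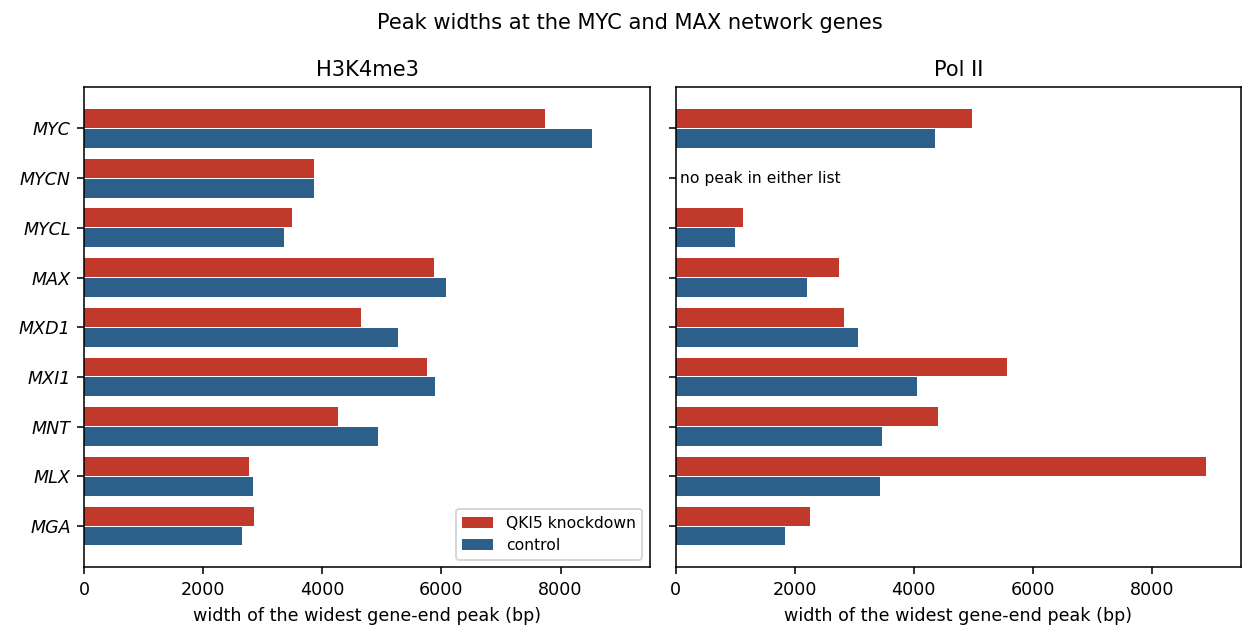
Width in bp of the widest H3K4me3 (left) and Pol II (right) peak within 1 kb of a gene end, for each of the 9 genes, with QKI5 knockdown as the upper red bar and control as the lower blue bar. MYC has the widest H3K4me3 peaks, 7743 bp in knockdown and 8523 bp in control, MYCN has no Pol II peak, and the Pol II peak of MLX is 8918 bp wide in knockdown against 3432 bp in control.

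MYC carried the widest H3K4me3 peak of the network. On chromosome 8 (GRCh38.p5, as are all peak positions) it ran from 127733829 to 127741571 in knockdown, 7743 bp, and from 127733835 to 127742357 in control, 8523 bp. Among gene-end peaks these widths stood at percentile 95.4 in knockdown and 96.3 in control. The upstream edges lay 6 bp apart, and the downstream edge lay 786 bp nearer the start in knockdown. The peak covers most of this short gene. The Pol II peak at the MYC start ran from 127734223 to 127739209 in knockdown, 4987 bp, and from 127734210 to 127738569 in control, 4360 bp. Its downstream edge reached 640 bp further into the gene in knockdown. Over MYC and 5 kb around it the order was the opposite, 4987 bp of Pol II peaks in knockdown and 6490 bp in control, with a further control peak at the 3' end.

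MYCN, known for its amplification in neuroblastoma, had H3K4me3 peaks of nearly equal width, 3864 bp in knockdown (chromosome 2, 15939660 to 15943523) and 3861 bp in control (15939819 to 15943679). Neither condition listed Pol II within 5 kb of the gene. Among genes marked by H3K4me3 in both conditions, 10.6% likewise had Pol II in neither. The antisense RNA gene MYCNOS overlaps the start of MYCN, and ChIP has no strand, so the mark cannot be assigned to one of the pair. MYCL, the third family member, had H3K4me3 peaks of 3483 bp in knockdown and 3348 bp in control. Its Pol II peaks were the narrowest of the network, 1139 bp in knockdown (chromosome 1, 39901183 to 39902321) and 1002 bp in control (39901294 to 39902295). They stood at percentile 13.9 of gene-end Pol II peaks in knockdown and 12.1 in control.

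MAX, the shared partner, had H3K4me3 peaks of 5869 bp in knockdown (chromosome 14, 65098153 to 65104021) and 6084 bp in control (65098100 to 65104183). Its Pol II peaks at the start were 2751 bp in knockdown (65100800 to 65103550) and 2210 bp in control (65101526 to 65103735). Inside the genes, away from their ends, H3K4me3 peaks were listed at 3 members in knockdown and 3 in control, MXI1, MNT and MGA, against 18.9% of genes in knockdown and 20.1% in control. Inner Pol II peaks were listed at 5 members in knockdown, MAX, MXD1, MXI1, MNT and MGA, and at 6 in control, with MLX added, against 32.1% of genes in knockdown and 31.1% in control. Inner is meant by the RefSeq gene span, 96.6 kb at MAX, and the ends of shorter transcripts within it were not examined. Inside MAX, knockdown had 3 inner Pol II peaks, the widest of 3593 bp at 65070838 to 65074430, and control had 1 of 654 bp at 65075202 to 65075855. That widest knockdown peak and the control peak lay 771 bp apart and did not overlap. The other inner knockdown peaks were 774 bp and 501 bp wide, and that of 774 bp also lies at FNTB. Summed over the gene and 1 kb around it, Pol II peaks covered 7619 bp in knockdown and 2864 bp in control.

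Of the MAX-binding repressors, MXD1 had H3K4me3 peaks of 4647 bp in knockdown (chromosome 2, 69912971 to 69917617) and 5264 bp in control (69912934 to 69918197). Its Pol II peak at the start was 2834 bp wide in knockdown (69913266 to 69916099) and 3065 bp in control (69912908 to 69915972). MXD1 was the only network gene whose Pol II gene-end peak was narrower in knockdown. Summed over the gene and 1 kb around it the direction turned, with 3973 bp of Pol II peaks in knockdown and 3566 bp in control. Short Pol II peaks inside it, 638 bp and 501 bp in knockdown and 501 bp in control, did not overlap between conditions. A width of 501 bp is the narrowest in the Pol II lists, held by 28.6% of peaks in knockdown and 29.1% in control. The share of all Pol II peaks without an overlap was not computed, so single-condition peaks cannot be called particular to the members.

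MXI1, also called MXD2, had 3 annotated starts, and each lay on an H3K4me3 and a Pol II peak in both conditions. At the first start H3K4me3 peaks were 5763 bp in knockdown (chromosome 10, 110206902 to 110212664) and 5890 bp in control (110206892 to 110212781). At the third start, inside the gene, H3K4me3 peaks were 3113 bp in knockdown (110225122 to 110228234) and 4369 bp in control (110224977 to 110229345). The Pol II peak at the first start ran from 110207238 to 110212803 in knockdown, 5566 bp, and from 110207276 to 110211339 in control, 4064 bp. Its downstream edge lay 1464 bp further in knockdown, the longest such shift of the network. Knockdown also had inner Pol II peaks of 1696 bp and 911 bp with no control peak on them. An inner H3K4me3 peak of 1503 bp in knockdown and 1142 bp in control lay on Pol II in knockdown and not in control.

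MNT, a widely expressed antagonist of MYC, had H3K4me3 peaks at its start of 4256 bp in knockdown (chromosome 17, 2398801 to 2403056) and 4927 bp in control (2398229 to 2403155). The Pol II peaks there went the other way, 4413 bp in knockdown (2398169 to 2402581) and 3476 bp in control (2399288 to 2402763). Both marks were also listed inside MNT in both conditions. That inner site had H3K4me3 peaks of 2950 bp in knockdown and 3672 bp in control, and Pol II peaks of 2252 bp in knockdown and 2036 bp in control. A second inner H3K4me3 peak, 1377 bp in knockdown and 766 bp in control, had a Pol II peak of 664 bp in knockdown and none in control. The promoter table gives no MNT start at either site.

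MGA, the largest of these proteins, was marked at its outer start and at a pair of inner starts. The outer H3K4me3 peaks were 2843 bp in knockdown (chromosome 15, 41620064 to 41622906) and 2651 bp in control (41620162 to 41622812), with Pol II peaks of 2264 bp in knockdown and 1842 bp in control. The inner starts shared an H3K4me3 peak of 2810 bp in knockdown (41660155 to 41662964) and 2770 bp in control (41660236 to 41663005). Pol II there was 2575 bp wide in knockdown and 3430 bp in control, so the inner peak was narrower in knockdown while the outer one was wider. A further inner H3K4me3 site of 916 bp in knockdown and 890 bp in control had a Pol II peak in knockdown alone. That peak was 501 bp wide, the narrowest width in the Pol II lists.

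MLX was the 1 member past a 1.5-fold difference in width, the size used here to call a change. Its Pol II peak at the start ran from 42561286 to 42570203 on chromosome 17 in knockdown, 8918 bp, and from 42566152 to 42569583 in control, 3432 bp. The knockdown peak also covers COASY, the neighbour upstream, where control had a separate Pol II peak of 3151 bp. At the other end a knockdown peak of 7167 bp, which also lies at PSMC3IP and RETREG3, overlapped separate control peaks of 1915 bp, 1553 bp and 3242 bp. Over MLX and 5 kb around it, 2 knockdown peaks covered 16085 bp and 5 control peaks covered 13293 bp. The wider knockdown peaks thus stand where control lists several, and part of their width belongs to neighbouring genes. H3K4me3 at the MLX start was 2773 bp in knockdown and 2832 bp in control.

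**Figure D2:**
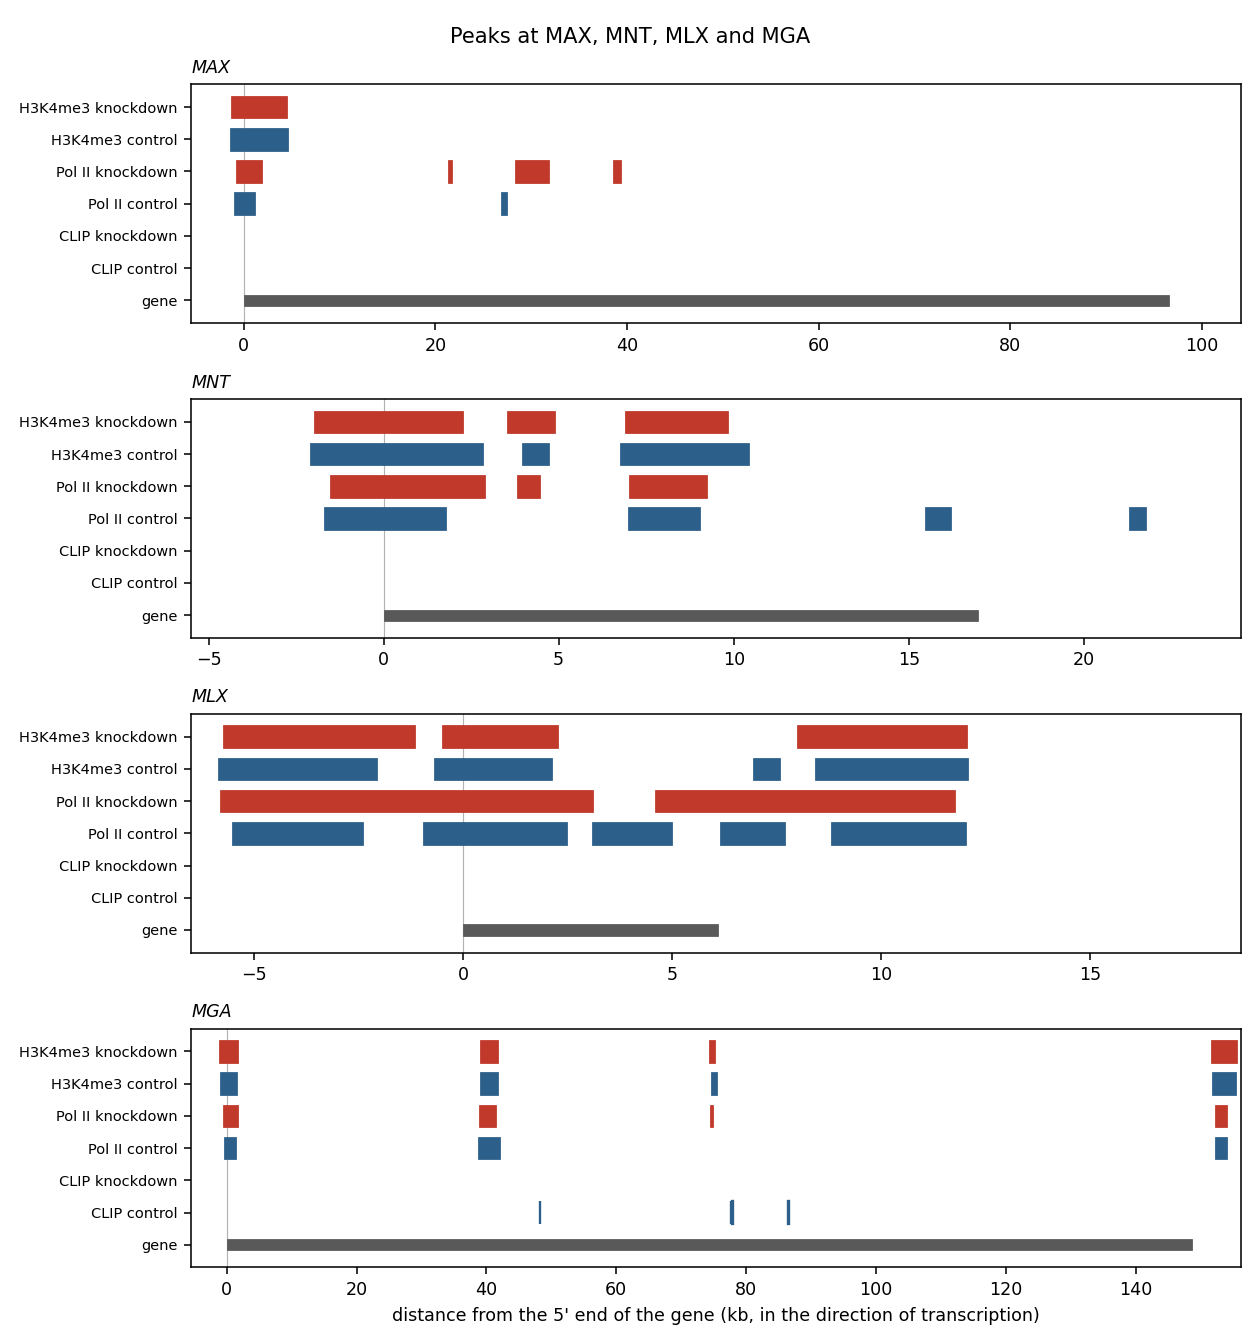
Peaks at MAX, MNT, MLX and MGA in each list, with knockdown tracks in red above control tracks in blue, the gene as a grey bar, and distance in kb from the 5' end of the gene in the direction of transcription. At MLX 2 Pol II peaks in knockdown stand where control has 5, and MAX has 3 inner Pol II peaks in knockdown against 1 in control.

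H3K4me3 ranked the genes in nearly the same order in both conditions. By its width the order was MYC, MAX, MXI1, MXD1, MNT, MYCN and MYCL in knockdown and in control, with MGA before MLX in knockdown and after it in control. No spread is known for these widths, so neighbours in that order cannot be said to differ. H3K4me3 peaks were wider in knockdown at 3 members, MYCN, MYCL and MGA, and narrower at 6. The log2 ratio of knockdown to control width ran down to -0.21 at MNT and up to 0.10 at MGA, with a median of -0.03, against -0.04 over 13350 genes. None of the 9 passed 1.5-fold, which 1.96% of genes did with the wider peak in knockdown and 2.22% with the wider peak in control.

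Pol II ranked them differently, with MLX, MXI1, MYC and MNT as the widest in knockdown and MYC, MXI1, MNT and MLX in control. Pol II peaks were wider in knockdown at 7 of 8 members. The log2 ratio was 0.19 at MYC, 0.18 at MYCL, 0.32 at MAX, -0.11 at MXD1, 0.45 at MXI1, 0.34 at MNT, 1.38 at MLX and 0.30 at MGA. The median was 0.31, against 0.08 over 11551 genes, of which 56.8% had the wider peak in knockdown. The 1.5-fold call applied to 1 of 8 members, and to 17.4% of genes with the wider peak in knockdown and 9.9% with the wider peak in control. The downstream edge of the Pol II peak at the start lay further along the gene in knockdown at 8 of 8 members, and at 54.5% of 9081 genes. The upstream edge lay further out in knockdown at 4 of 8 members, and at 55.3% of genes. For H3K4me3 the downstream edge lay further along in knockdown at 3 of 9 members, and at 43.4% of genes, and the upstream edge further out at 3 of 9 members and at 43.8% of genes. The number of genes is small, their peaks come from the same pooled lists, and no test was made of these differences.

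**Figure D3:**
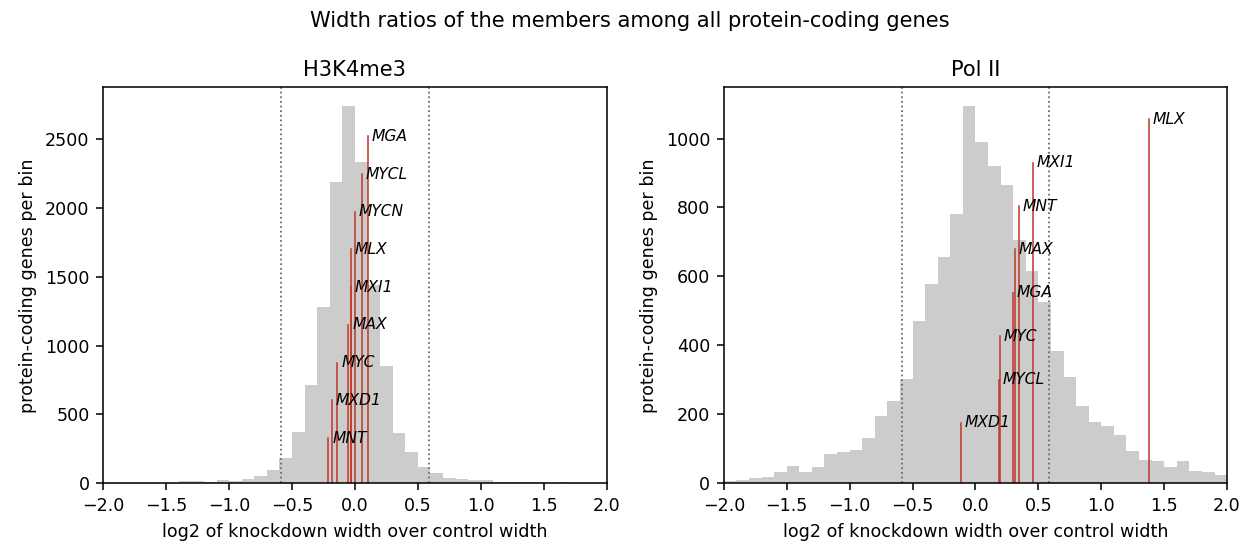
Histogram of the log2 ratio of knockdown to control width of the widest gene-end peak, in bins of 0.1 over protein-coding genes with a peak in both conditions, for H3K4me3 (left) and Pol II (right); red lines mark the network genes, their heights only spacing the names, and dotted lines mark 1.5-fold. Values beyond the axis are left off, 4 and 4 genes for H3K4me3 and 50 and 101 for Pol II below and above. The H3K4me3 ratios of the network lie between -0.21 and 0.10, and MLX alone passes 1.5-fold for Pol II.

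The 3' ends of the RefSeq gene spans were read next, without the ends of shorter transcripts. A separate Pol II peak within 1 kb of the 3' end was listed at 1 member in knockdown, MLX, and at 4 in control, MYC, MXI1, MNT and MLX. Over genes of known strand, 23.0% had such a peak in knockdown and 21.5% in control. Of the genes with one in control, 21.8% had no 3' end peak in knockdown, and of those with one in knockdown, 27.1% had none in control. At MYC the control peak ran from 127741142 to 127743271, 2130 bp, and the nearest knockdown peak lay 1932 bp away. At MNT the control peak ran from 2384854 to 2385595, 742 bp, and lay 6219 bp from the nearest knockdown peak.

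At MXI1 the control peak at the 3' end ran from 110286266 to 110290045, 3780 bp. Knockdown had no peak within 1 kb of that end but had peaks of 851 bp, at 110289889 to 110290739, and of 6483 bp, at 110291766 to 110298248, further on. The first of these overlapped the control peak by 157 bp. All 3 peaks also lie at or in SMNDC1, the neighbouring splicing factor gene, so they cannot be assigned to MXI1 alone. The H3K4me3 peak at the MYC start came within 1 kb of the 3' end in control and not in knockdown. A separate H3K4me3 peak at the 3' end was listed at no member in knockdown and at 1 in control, MLX, against 6.47% of genes in knockdown and 6.68% in control. It was 663 bp wide, lay 398 bp from the nearest knockdown peak and is also within 1 kb of PSMC3IP. Of genes with such a control peak 11.0% had none in knockdown, and of those with a knockdown peak 7.9% had none in control.

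**Figure D4:**
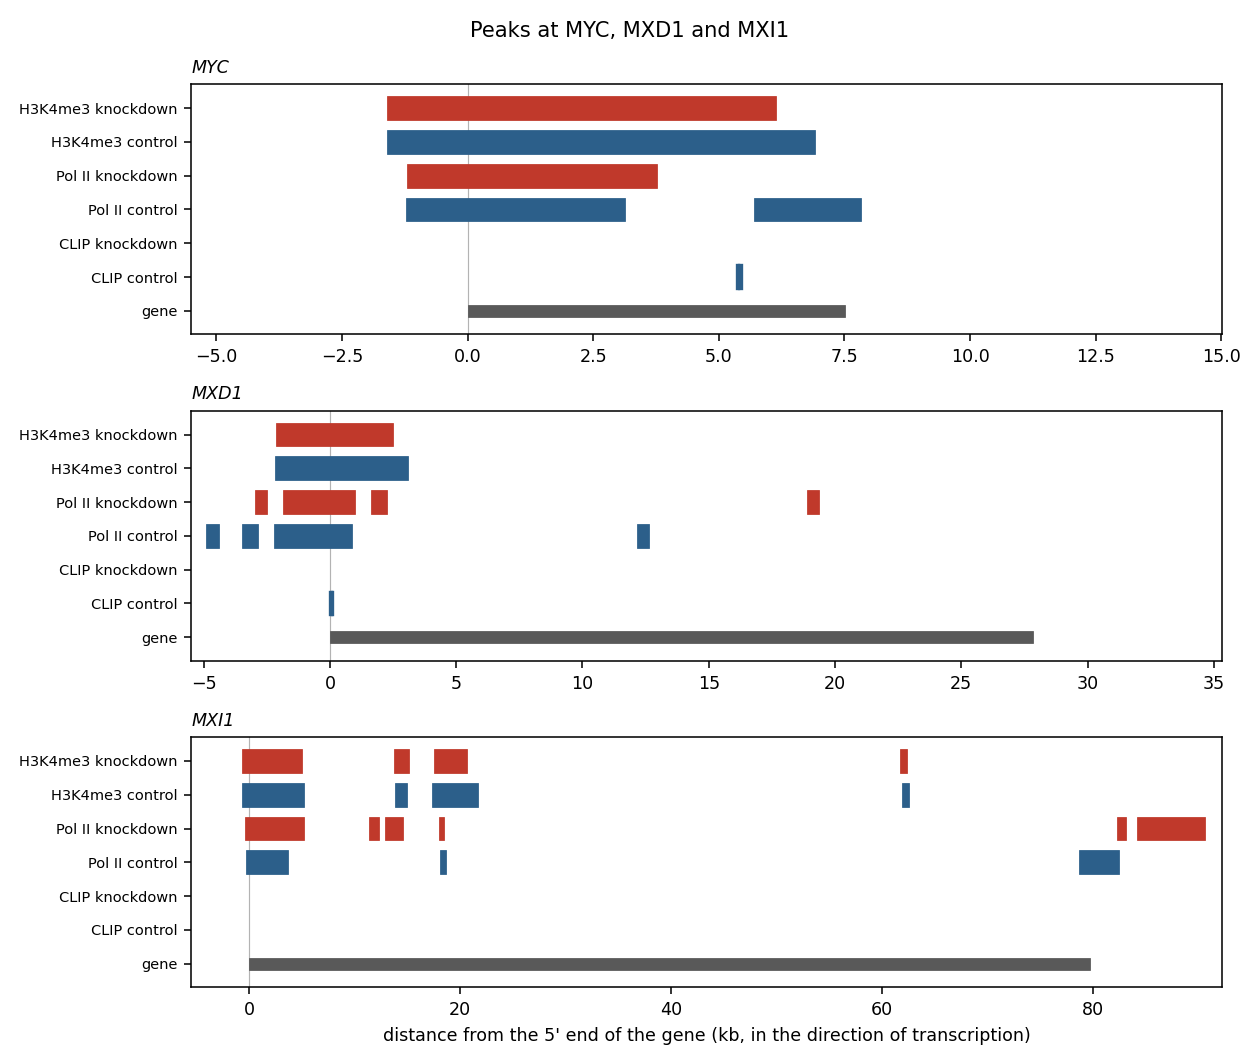
Peaks at MYC, MXD1 and MXI1 in each list, with knockdown tracks in red above control tracks in blue, the gene as a grey bar, and distance in kb from the 5' end in the direction of transcription. The control Pol II peak at the 3' end of MYC has no knockdown counterpart, and the CLIP peaks of MYC and MXD1 are in control alone, at the later part of MYC and at the start of MXD1.

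QKI5 CLIP asks which of these RNAs came down with QKI5. The control list held 8 CLIP peaks on 3 of the 9 genes, MYC, MXD1 and MGA, and the knockdown list held none on any of the 9. Over all genes 0.828% had CLIP peaks in knockdown alone, 12.3% in control alone and 0.923% in both. A control CLIP peak was present on 19.1% of genes with both marks in both conditions. Of the 8 control CLIP peaks, 4 lay on H3K4me3 and 2 on Pol II, while of all control CLIP peaks 12.9% lay on knockdown and 13.1% on control H3K4me3, and 13.6% on knockdown and 13.2% on control Pol II. Of all genes with a control CLIP peak, 93.0% had none in knockdown, and the control list was 10.97 times as long, so the absence in knockdown is what most genes show. The read number, the log2 enrichment and the -log10 p of each CLIP peak are the authors' values and rank peaks within their list only.

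MYC RNA carried adjoining CLIP peaks on the plus strand of chromosome 8, at 127740801 to 127740842 and 127740843 to 127740905. They had 15 reads each, log2 enrichments of 5.02 and 3.66, and -log10 p of 13.1 and 9.58. A read number of 15 stood at percentile 92.5 of the control list, while the enrichments stood at 30.4 and 5.38. Adjoining peaks may share reads, so the reads were not added. The site lies inside the H3K4me3 peak of both conditions and on no Pol II peak of either, 236 bp before the control Pol II peak at the 3' end and 1591 bp past the knockdown peak at the start. Of all control CLIP peaks, 2.7% lay on H3K4me3 in both conditions and on Pol II in neither.

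MXD1 RNA carried adjoining CLIP peaks at the very start of the gene, at 69915129 to 69915173 and 69915174 to 69915225 on the plus strand of chromosome 2. They had 17 reads each, the highest read number of the network and percentile 94.6 of the list. Their log2 enrichments, 3.76 and 3.55, were low in the list, at percentiles 6.47 and 4.37, and their -log10 p were 11.1 and 10.4. Both lie on H3K4me3 and on Pol II in both conditions, as did 7.92% of control CLIP peaks.

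MGA RNA carried 4 CLIP peaks spread over the inner part of the gene on the plus strand of chromosome 15, the most of the network. The peak nearest the inner starts, at 41669422 to 41669474, had 13 reads, with 4.04 as its log2 enrichment and 9.31 as its -log10 p. Those at 41698889 to 41698942 and 41699085 to 41699160 had 9 and 8 reads and -log10 p of 7.70 and 7.08. The last, at 41707728 to 41707770, had 8 reads and the highest enrichment of the network, 5.92. The list's median was 9 reads, and the third peak's -log10 p stood at percentile 3.63. None of the 4 lies on an H3K4me3 or Pol II peak of either condition. The peak at 41698889 is 2431 bp from a knockdown and 2236 bp from a control H3K4me3 peak. No CLIP peak was listed for MYCN, MYCL, MAX, MXI1, MNT or MLX. Whether these sites are exonic, intronic or in a UTR, and whether they hold the motif that QKI is known to bind, was not analysed here.

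By a rule of likeness, the genes nearest to a member were those with the smallest distance over the log2 widths of the 4 gene-end peaks, among 11137 genes with all 4. Nearest to MYC were FBXO9 and the overlapping locus LOC128031835, which share their peaks, and BTF3L4, at distances of 0.10, 0.10 and 0.13. FBXO9 had H3K4me3 peaks of 8032 bp in knockdown and 8748 bp in control and Pol II peaks of 5029 bp in knockdown and 4152 bp in control. Nearest to MAX were NONO, at 0.10, and R3HDM1 and ZRANB3, which share their peaks, at 0.11. Nearest to MXD1 were C9orf40, CCDC9 and RNF34, at 0.07, 0.07 and 0.11.

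Genes around the network were read from 5 lists. Whether their peaks joined with those of neighbouring genes, as at MLX, was not examined, so a width may include neighbours. All 69 of these genes had H3K4me3 at a gene end in both conditions, and 65 had Pol II in both. Over all protein-coding genes the shares were 66.6% for H3K4me3 and 57.6% for Pol II. Among genes with H3K4me3 in both conditions, 83.4% had Pol II in both. Of the 7 related E-box binding proteins, Pol II was listed in both conditions at 6 and in knockdown alone at MLXIPL, the glucose-responsive partner of MLX (636 bp). Over all genes 3.97% had Pol II in knockdown alone. The Pol II peaks of MLXIP, another partner of MLX, were 5212 bp in knockdown and 1955 bp in control, and those of MXD3 were 8755 bp in knockdown and 3898 bp in control. MLXIP also carried CLIP peaks in both conditions, 1 in knockdown and 4 in control, the pattern of 0.923% of all genes. MLXIP and MXD3 were the 2 of 6 genes whose Pol II peak was at least 1.5 times as wide in knockdown. At none of the 6 was it so in control. Of genes with Pol II in both conditions, 17.4% had a peak that much wider in knockdown and 9.9% in control. The median log2 ratio of Pol II width over these 6 was 0.40, against 0.08 over all genes with Pol II in both conditions.

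All 15 cofactors and partners of MYC had both marks in both conditions, against 55.6% of all genes. Pol II was at least 1.5 times as wide in knockdown at 3 of them and in control at 1. These are near the shares of genes with Pol II in both conditions, 17.4% in knockdown and 9.9% in control. PAF1, of an elongation complex, had Pol II peaks of 6374 bp in knockdown and 3042 bp in control. WDR5, which docks MYC on chromatin, had 4830 bp in knockdown and 2490 bp in control. TRRAP, the scaffold of MYC-bound acetyltransferases, had 1948 bp in knockdown and 1197 bp in control. RUVBL1, a helicase subunit, had 1262 bp in knockdown and 3528 bp in control. RUVBL2, the 1 of the 15 past 1.5-fold for H3K4me3, had peaks of that mark of 7451 bp in knockdown and 4952 bp in control. Its log2 ratio of 0.589 only just passed the cut of 0.585. Of genes with H3K4me3 in both conditions, 1.96% passed with the wider peak in knockdown and 2.22% with the wider peak in control. Knockdown CLIP peaks were listed at 2 of the 15, TRRAP (1 in knockdown, 4 in control) and EP400 (2 in knockdown, 1 in control). Over all genes, 0.923% had CLIP peaks in both conditions. Control CLIP peaks were listed at 5 of the 15, against 19.1% of genes with both marks in both conditions.

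The 12 genes of the repressor complexes also had both marks in both conditions, against 55.6% of all genes. Their median log2 Pol II ratio was -0.19, with 5 wider and 7 narrower in knockdown. The median was 0.08 over all genes with Pol II in both conditions. Pol II was at least 1.5 times as wide in knockdown at 1 of the 12 and in control at 2. Of genes with Pol II in both conditions, 17.4% had a peak that much wider in knockdown and 9.9% in control. Wider in control were PCGF6 (1080 bp in knockdown, 1688 bp in control) and E2F6 (917 bp in knockdown, 1445 bp in control), which are partners of MGA. RING1, of the same complex, had Pol II peaks of 7763 bp in knockdown and 4898 bp in control and H3K4me3 peaks of 3414 bp in knockdown and 11692 bp in control. For H3K4me3 it was the 1 of the 12 past 1.5-fold. Of genes with H3K4me3 in both conditions, 2.22% passed with the wider peak in control. The corepressor gene SIN3B had no CLIP peak in knockdown and 4 in control. Control CLIP peaks were listed at 4 of the 12 genes, against 19.1% of genes with both marks in both conditions. None of the 12 had one in knockdown, and 93.0% of all genes with a control CLIP peak likewise had none.

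Of the 14 genes of MYC turnover and control, Pol II was in both conditions at 13 and in knockdown alone at FBXO32, a ubiquitin ligase (757 bp). Pol II in knockdown alone was listed at 3.97% of all genes. The 1.5-fold difference was reached at 1 of the 13 with the wider peak in knockdown, and at none with the wider peak in control. Of genes with Pol II in both conditions, 17.4% reached it in knockdown and 9.9% in control. The median log2 ratio was 0.12, against 0.08 over those genes, with 7 of the list wider in knockdown and 5 narrower. The 1 gene past 1.5-fold was TRIB3, a stress-induced pseudokinase, which had Pol II peaks of 24602 bp in knockdown and 14871 bp in control. GSK3B, a kinase that marks MYC for degradation, had 6 control CLIP peaks and none in knockdown, the most of its list. Control CLIP peaks were listed at 5 of the 14 and knockdown peaks at none. Over all genes, 12.3% had CLIP peaks in control alone, and 93.0% of those with a control peak had none in knockdown.

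Of the 21 known MYC targets, Pol II was in both conditions at 19 and in neither at the others. It was at least 1.5 times as wide in knockdown at 4 and in control at 3. Of genes with Pol II in both conditions, 17.4% had a peak that much wider in knockdown and 9.9% in control. The median log2 ratio of the list was 0.01, against 0.08 over those genes. Wider in knockdown were the glycolytic ENO1 (28750 bp in knockdown, 8092 bp in control), the cell cycle kinase CDK4 (10421 bp in knockdown, 6613 bp in control), and the nucleolar FBL (2168 bp in knockdown, 1292 bp in control) and NOP58 (5060 bp in knockdown, 3052 bp in control). Narrower in knockdown were NCL (8025 bp in knockdown, 16828 bp in control), NOP56 (3018 bp in knockdown, 8248 bp in control) and NPM1 (7234 bp in knockdown, 12189 bp in control), all nucleolar. Nucleolar genes thus stood on both sides. TERT, the telomerase gene, had H3K4me3 peaks of 2822 bp in knockdown and 1411 bp in control, without Pol II. For H3K4me3 it was the 1 of the 21 past 1.5-fold. Of genes with H3K4me3 in both conditions, 1.96% passed with the wider peak in knockdown. NOP56 had 2 CLIP peaks in knockdown and 2 in control, and RCC1 had 3 control peaks. Control CLIP peaks were listed at 7 of the 21 and knockdown peaks at 1. Over all genes, 12.3% had CLIP peaks in control alone and 0.923% in both conditions. NOP56 hosts small nucleolar RNAs in its introns, so the RNA behind its CLIP peaks is uncertain.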

How the data were processed

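There are 6 deposited peak lists, for H3K4me3, Pol II and CLIP in knockdown and control. Per the series design text each joins its 2 replicates. HOMER and GRCh38.p5 appear in the submitters' processing notes with no role stated. Which aligner and caller settings applied, and how inputs entered, is not given in the sources used here. In the 4 ChIP lists the deposited score is 1 at every peak, so positions and widths were used. The authors' CLIP columns have no header and were taken from their values as a -log10 p, a log2 enrichment and an identifier that ends in a read number.

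Gene ends and promoter sequences came from RefSeq tables of GRCh38.p14, used for neighbourhood and names. A gene-end peak lies within 1 kb of either end. Strand came from the promoter table, for 79.1% of genes, and at MYC from its CLIP peaks. With 1 list per condition, no test was made, and a width difference of 1.5-fold counted as a change. The members and lists were chosen with earlier results of these data known. Genes beyond the members were named where a peak was in a single condition, a width passed 1.5-fold, CLIP listed the gene in knockdown, or it had the most control CLIP peaks of its list. A gene that this rule names is not reported here. Python 3.11.15, numpy 2.4.6 and pandas 2.3.3 were used, and the assignment of peaks was tested on simulated data. Other distances, stricter peaks, summed lengths and stricter overlaps were tried.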

Additional observations from a re-analysis of the deposited data

How the results depend on the processing

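Counts of members with a gene-end peak in both conditions, in knockdown alone or in control alone held within 1.5 times under gene-end distances of 0 kb and 5 kb, without the peaks of 501 bp or less, and with peaks anywhere in the gene. Members past 1.5-fold in Pol II width numbered 2 when lengths were summed over the gene, and 2 with the widest peak anywhere in it, against 1. The added member was MAX in both, at 1.41 on the log2 scale when summed and at 0.70 with its widest peak. The Pol II ratio of 3 members, none past 1.5-fold, changed sign. For MGA it was -0.41 with its widest peak, against 0.30, and when summed it was -0.38 for MYC, against 0.19, and 0.16 for MXD1, against -0.11. Summed, it kept its sign but was 0.03 for MXI1, against 0.45, and 0.02 for MGA. Members with wider Pol II in knockdown numbered 7 when summed and 6 with the widest peak, against 7. Of 21 knockdown Pol II peaks of the members, 10 overlapped a control peak at 50% reciprocal overlap, against 12 by any overlap. The share over all Pol II peaks was not computed. The widest gene-end Pol II peaks then overlapped at 7 members, against 8. By an alternative chosen after seeing the data, members with a separate Pol II peak at the 3' end numbered 2 in knockdown and 5 in control within 5 kb, 1 in knockdown and 4 in control within 1 kb, and 1 in knockdown and 2 in control when the peak had to cover the end. CLIP peaks of the members in control numbered 3 at a -log10 p of at least 10 and 2 at a log2 enrichment of at least 5, against 8. Depth is unknown, and the files limit each value to 1 list per condition. No paired analysis was possible because each list pools both replicates, and for the same reason no replicate could be left out.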
